A study of Drosophila melanogaster with 2 samples.

Results

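Transposable elements are stretches of DNA that copy or move themselves around the genome, and in Drosophila melanogaster most old copies lie in the pericentric sequence next to the centromeres and on the small chromosome 4. LTR retrotransposons copy themselves through RNA and carry long terminal repeats, LINE retrotransposons do so without such repeats and are often cut short at their 5′ end, and DNA transposons move as DNA with the help of a transposase. ADD1 is known as a heterochromatin protein with an ADD domain related to that of mammalian ATRX, and heterochromatin is where many silenced copies of these elements are packaged.

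The regions described here are ADD1-GFP calls whose summit lay in an annotated insertion of any family except INE-1, a short and very numerous element. The chromatin came from whole embryos of both sexes, 0 to 16 h old, of the line ADD1-MiMIC-GFP, in which an eGFP exon placed in an intron of ADD1 makes an ADD1-GFP fusion at the gene's own locus. GFP antibody was used for the precipitation, the antibody field names CG8290 (the systematic name of ADD1), and chromatin was sonicated to 200 to 800 bp. The 2 libraries, biological replicates 1 and 3, form a single group, so conditions were not compared, and whole embryos mix all cell types of the stage. The authors called peaks on each replicate and on both pooled, deposited 30000 calls per list, and thresholded the pooled list with the irreproducible discovery rate (IDR), which compares ranks between replicates. The thresholded peaks were the 4402 pooled calls with the highest signal. Calls were ranked by signal inside each list, rank 1 being the strongest, and the depth of the libraries is unknown.

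Of the 30000 pooled calls, 620 had their summit in such an insertion, another 283 lay in INE-1 alone, and 29097 lay outside annotated insertions. The 620 calls fell in 465 of the 3654 annotated insertions on the chromosome arms (12.7%) and in 99 of 127 families. A summit also lay in an overlapping INE-1 copy in 24 cases. LTR insertions held 240 of the calls, LINE insertions 204 and DNA transposons 174, and 2 calls lay in insertions with no class, 1 of the family Y and 1 without a family name.

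The sequence under the strongest calls differed in how far it is repeated in the genome, and 4 thresholded peaks are shown for that. Each is given over 50 bp on either side of the summit, on the element's own strand, from the Release 6 assembly (dm6). Capitals mark bases that no single-copy 32-mer covers, that is, bases where every overlapping 32-base word also occurs elsewhere in the assembly. The Cr1a copy is at chr3L:23207217-23207317 (+ strand), the jockey copy at chrX:7703107-7703207 (+ strand), the HeT-A copy at chr4:1306515-1306615 (- strand) and the 1360 copy at chr4:181823-181923 (+ strand).
Cr1a{}1177: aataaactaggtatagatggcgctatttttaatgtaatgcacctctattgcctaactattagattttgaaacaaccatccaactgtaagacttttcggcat
jockey{}80: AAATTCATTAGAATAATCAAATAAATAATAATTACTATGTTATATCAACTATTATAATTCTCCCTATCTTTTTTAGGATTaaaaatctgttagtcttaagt
HeT-A{}6268: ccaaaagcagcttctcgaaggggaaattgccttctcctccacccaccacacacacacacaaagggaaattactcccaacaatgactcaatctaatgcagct
1360{}1617: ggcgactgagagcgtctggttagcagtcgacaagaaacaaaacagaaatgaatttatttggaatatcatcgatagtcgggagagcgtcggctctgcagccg
In the jockey window 80 of 101 bases are repeated elsewhere, and in the other 3 windows none is. The 201-bp windows around the Cr1a and 1360 summits aligned to no other annotated copy of their family.

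A second set shows 1360 copies called near the same end of the element. They are 4 of the stronger calls with a summit in the first 10% of the 1360 reference copy and the letters GAGAGAG, which capitals mark on either strand. They lie at chr4:41558-41658 (+ strand), chr4:47323-47423 (- strand), chr4:782586-782686 (- strand) and chr3R:8261617-8261717 (- strand).
1360{}PlexB[1481]: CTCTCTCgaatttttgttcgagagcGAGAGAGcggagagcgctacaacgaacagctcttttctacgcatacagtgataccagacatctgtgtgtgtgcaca
1360{}4747: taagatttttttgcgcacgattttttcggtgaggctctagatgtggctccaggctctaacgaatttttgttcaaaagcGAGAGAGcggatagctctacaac
1360{}2816: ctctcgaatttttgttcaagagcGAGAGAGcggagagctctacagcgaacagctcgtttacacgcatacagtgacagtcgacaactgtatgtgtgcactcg
1360{}2276: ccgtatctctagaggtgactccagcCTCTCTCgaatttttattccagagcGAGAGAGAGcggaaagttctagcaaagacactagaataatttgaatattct
In all 4 the letters GAGAGAG follow a short run of T, and the 4 summits lie 85 to 140 bp from the start of the reference copy.

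Few calls in these elements were strong. Thresholded peaks numbered 13 of 620 (2.10%, exact 95% interval 1.12 to 3.56), where 14.7% of all pooled calls are thresholded peaks. In INE-1 alone 4 of 283 calls were (1.41%, interval 0.386 to 3.58), and outside insertions 4385 of 29097 (15.1%, interval 14.7 to 15.5). All intervals here are Clopper-Pearson for shares and Poisson for rates. They cover counting error only and treat calls as independent, although several calls can share an insertion. The strongest 3000 pooled calls held 5 of the 620 and the next 3000 held 20, while each later block of 3000 from rank 12001 on held 70 to 90. The median pooled rank was 18198.5 in these elements, 18217 in INE-1 and 14858 outside insertions. By replicate, the 4402 strongest calls of replicate 1 took in 19 of its 589 calls in these elements (3.23%), and those of replicate 3 took in 7 of 610 (1.15%).

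**Figure D1:**
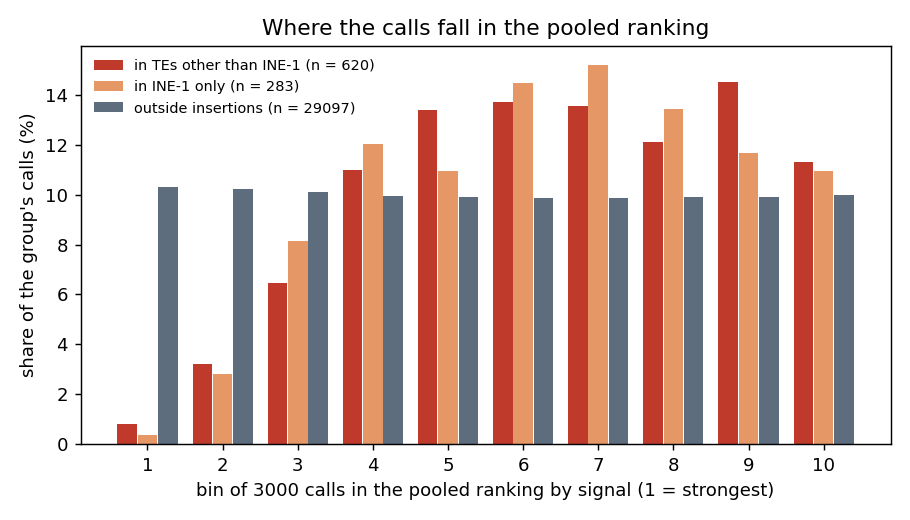
Share of each group's calls (%) in 10 bins of 3000 calls of the pooled ranking by signal, bin 1 being the strongest, for the 620 calls in transposable elements (TEs) other than INE-1, the 283 in INE-1 and the 29097 outside insertions. Bars of both element groups are lowest in bins 1 and 2, and the bars outside insertions stay near 10% throughout.

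Where the calls lie in the genome differed too. Pericentric sequence held 398 of the 620 calls (64.2%, interval 60.3 to 68.0) and 8.79% of calls outside insertions. Chromosome 4 held 96 (15.5%, interval 12.7 to 18.6) against 3.04%. Element sequence is itself largely pericentric where it can be told apart. Of 1284 kb that starts a single-copy word, 801 kb was pericentric and 90.4 kb lay on chromosome 4. Per Mb of such sequence, pericentric elements had 497 calls (interval 449 to 548), close to 483 over all elements. Those on chromosome 4 had 1062 (861 to 1297). These counts include calls on partly repeated windows, so the rates do not rank the zones. Wholly single-copy windows made up 18.8% of the chromosome 4 calls and 36.9% of the pericentric ones. Among the 202 calls with wholly single-copy windows the share on chromosome 4 was 8.91%. Pericentric means beyond 22 Mb on 2L and X and beyond 23 Mb on 3L, and on 2R and 3R before 5.6 and 4.2 Mb. The share depends on these boundaries. Moved 0.5 Mb toward the centromere they gave 28.7% in the elements and 6.61% outside insertions, and moved 0.5 Mb toward the telomere 71.8% in the elements and 11.1% outside. Within pericentric sequence the median rank was 18975 in the elements and 19062 outside insertions, and 9 of 398 against 118 of 2557 calls were thresholded peaks (2.26% in the elements, 4.61% outside). On chromosome 4 the median ranks were 15849.5 in the elements and 15417 outside insertions, with thresholded shares of 2.08% in the elements and 7.01% outside. On the arms outside pericentric sequence the elements' 126 calls had a median rank of 17729.5, against 14299 outside insertions, with thresholded shares of 1.59% in the elements and 16.4% outside. The medians were thus close together in pericentric sequence and on chromosome 4, and apart on the arms. The thresholded shares were lower in the elements in each zone. The outside share lay above the elements' interval in pericentric sequence (1.04 to 4.25) and on the arms (0.193 to 5.62). On chromosome 4 it lay inside that interval (0.253 to 7.32).

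The 13 thresholded peaks came from LINE insertions in 7 cases, and from LTR and DNA elements in 3 cases each. Of these 13, 9 were pericentric, 2 lay on chromosome 4 and 2 on the arms. All 13 matched a call in both replicates, and for 7 of them both matching calls ranked within the top 4402 of their list.

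Among LINE elements, the strongest peak lay in Cr1a{}1177 at 23207267 on 3L, at rank 2102 in the pool, 1839 in replicate 1 and 2221 in replicate 3. Its summit lay in an intron of nAChRalpha4, which encodes a nicotinic acetylcholine receptor subunit, 598 bp from the nearest annotated start. The window around this summit aligned to no other annotated Cr1a copy. The same gene's introns held both peaks of G5{}5178, at pooled ranks 2954 and 4193. The stronger one ranked 3140 and 3075 in replicates 1 and 3, and the weaker one 2416 and 7811. The stronger one's window aligned to 1 other G5 copy, at 75.6% identity, and the weaker one's to none. The nAChRalpha4 locus thus carried 3 of the 13 peaks, all pericentric on 3L.

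The remaining LINE peaks were spread over the arms X, 3R, 3L and 4. jockey{}80, in an intron of CHES-1-like (a forkhead factor) on X, had pooled rank 2327 and ranks 3687 and 1778 in replicates 1 and 3. jockey{}1450, on 3R and 368 bp from the start of Cnx99A, a calnexin, had pooled rank 3688 and ranks 5142 and 5421. These jockey windows had 22.4% and 0% single-copy 32-mers, and matched another jockey copy at 97.5% and 100% identity, so most of their 32-mers also occur elsewhere. The peak in F{}5843, in an intron of AGO3 (an Argonaute protein of the piRNA pathway), had pooled rank 3721, with 3129 and 5249 in the replicates, and its summit lay 1 bp from the end of the insertion. HeT-A{}6268, a copy of a telomeric retrotransposon at 1306565 on chromosome 4, had pooled rank 3243 and ranks 3045 and 3258, among the closest of the 13 between replicates.

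Among LTR elements, gypsy{}615 at 5056058 on 2R held the strongest call of all 620, with pooled rank 404 and ranks 200 and 814 in replicates 1 and 3. gypsy{}RR50358 on 3L followed, with pooled rank 3146 and ranks 2289 and 4509. invader5{}1644, in an intron of Marf1 on 2L, had pooled rank 3599 and ranks 2478 and 5292. Only the gypsy peaks among these stood on nearly identical copies, at 99.5% and 98.5% identity to another gypsy copy. Among DNA elements, all 3 peaks were 1360 copies. 1360{}3667 on 2R had pooled rank 2507 and ranks 1382 and 2973, 1360{}1617 on chromosome 4 had 3405, 2903 and 4001, and 1360{}3655, in an intron of p120ctn (a catenin) on 2R, had 4240, 4632 and 4664. The chromosome 4 copy lay 34 bp from the start of a long noncoding RNA, lncRNA:CR46488, and its window aligned to no other 1360 copy.

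The next 7 calls by signal fell just below the threshold or a little further down, at pooled ranks 4734 to 5309. They lay in G3{}639, Max{}2940, roo{}850, G5{}492, jockey2{}141, H{}84 and Tc1-2{}2278. The replicates differed most for H{}84, a hobo copy in an intron of nAChRalpha3, which ranked 1401 in replicate 3 and had no matching call in replicate 1. The call in G3{}639 ranked 2225 in replicate 1 and 11307 in replicate 3, and its window aligned to no other annotated G3 copy. The Tc1-2 copy lay in an intron of Ada2b, a transcriptional adaptor, and roo{}850 lay 53 bp from a start of grh, which encodes the transcription factor Grainy head.

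Calls per length of annotated element sequence differed between the classes in step with how unique that sequence is. DNA elements had 185 calls per annotated Mb (interval 158 to 214), LINE elements 110 (95.8 to 127) and LTR elements 50.7 (44.5 to 57.5). Sequence that starts a single-copy 32-mer made up 32.7% of DNA, 24.4% of LINE and 10.8% of LTR element sequence. Per Mb of such single-copy starts the classes were much closer, with 565 calls for DNA (484 to 655), 452 for LINE (392 to 518) and 470 for LTR elements (413 to 534), and these intervals overlap. Counting only calls whose whole 201-bp window is single-copy, over the same single-copy starts, gave 114 for DNA (35 calls), 146 for LINE (66 calls) and 196 for LTR elements (100 calls). DNA elements were then lowest instead of highest. These starts include scattered ones outside any wholly single-copy window, so this order does not rank the classes. Such windows made up 20.1% of DNA, 32.4% of LINE and 41.7% of LTR calls. Median pooled ranks were 17193 in DNA, 17252 in LINE and 19675.5 in LTR elements.

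How the authors placed reads that fit several copies is unknown, so a low count in repeated sequence does not show that ADD1-GFP was absent there. The same pattern held across families. Over the 77 families with at least 20 kb annotated, insertions without a family name counting as 1, Spearman's rho between the single-copy share and calls per annotated Mb was 0.81, and it was 0.31 between that share and calls per Mb of single-copy starts. This describes families of 1 assembly whose values rest on the same call list. The 14 such families without a call, among them Juan, blood, Tirant and mdg3, held 944 kb of annotated sequence of which 51.1 kb starts a single-copy 32-mer. roo, an LTR element with 1.00 Mb annotated of which 3.34% is single-copy, had 7 calls. Of these 7, 6 lay in 1 insertion, roo{}850, whose sequence is 99.7% single-copy and whose 6 windows aligned to no other annotated roo copy.

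**Figure D2:**
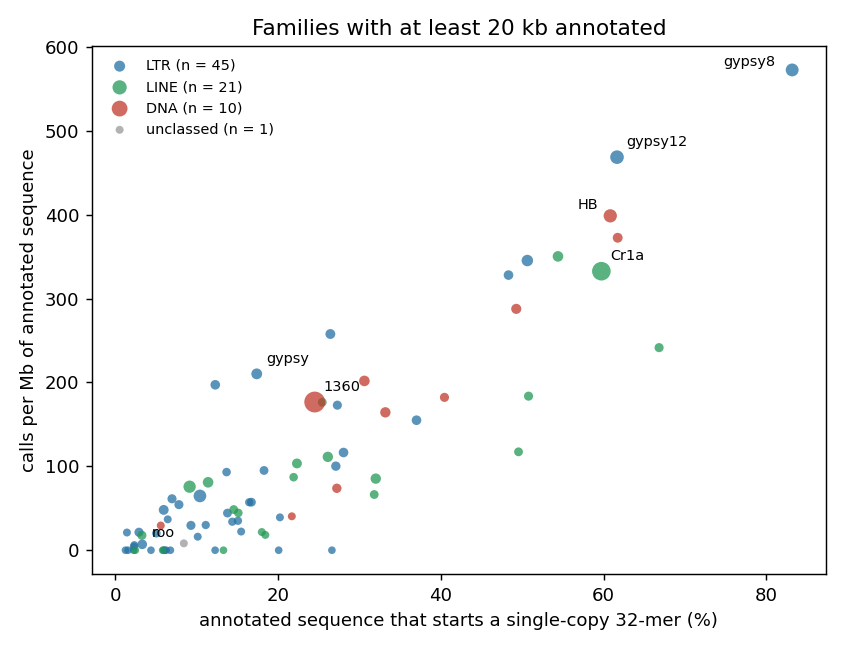
Calls per Mb of annotated sequence against the share of that sequence (%) that starts a single-copy 32-mer, 1 point per family with at least 20 kb annotated (n = 77), coloured by class and sized by number of calls. Families with little single-copy sequence, such as roo, lie near 0, and gypsy8 and gypsy12 lie at the upper right.

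Of the families, 15 had at least 10 calls and together held 338 of the 620. 1360, a DNA transposon related to the P element, led with 77 calls in 61 copies, a median rank of 15884, 43 calls in pericentric sequence and 25 on chromosome 4. Cr1a, a LINE, had 59 calls in 39 copies and a median rank of 18098. The order of these families was not stable, with 55 calls for 1360 and 61 for Cr1a in the list of replicate 1, 78 for 1360 and 62 for Cr1a in that of replicate 3, and 14 for 1360 and 23 for Cr1a when only single-copy windows were counted. HB and H (hobo), both DNA transposons, had 24 and 11 calls, and FB, the foldback element, had 10. Among LTR elements, gypsy12 had 26 calls, gypsy8 had 22, 297 had 21, diver2 had 15 and gypsy had 12. Among LINE elements, F had 19, jockey and Rt1c 11 each, and X and Rt1b 10 each.

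Per Mb of single-copy starts these families ranged from 267 calls in Rt1b (interval 128 to 490) to 1208 in gypsy (624 to 2110). 1360 had 720 such calls and Cr1a 557. The interval of gypsy lies above that of Rt1b and overlaps those of the other 13. The counts include calls on partly repeated windows, so these rates do not rank the families. The median window was 76.2% single-copy in gypsy and 84.1% in Rt1b. jockey had the lowest median rank number of the 15, 11961, and Rt1b the highest, 26308. A match in both replicates was found for 10 of 11 jockey calls, 20 of 26 gypsy12 calls and 48 of 77 1360 calls, but for 1 of 10 Rt1b calls. The jockey calls lay largely on repeated sequence, with a median window 30.6% single-copy and a median identity of 100% to another jockey copy. Of these 15 families, the strongest calls of those without a thresholded peak ranked between 5223 in the pool (H{}84) and 11842 (FB{}1604), which lay 8 bp from a start of SPoCk, a calcium pump gene. In between came X{}6014, diver2{}5706, gypsy8{}4437, gypsy12{}3425, 297{}2824, HB{}3944, Rt1b{}1666 and Rt1c{}5067, at pooled ranks 6196 to 9014. Of these, gypsy8{}4437 differed most between replicates, with rank 3657 in replicate 1 and 22277 in replicate 3. The nearest starts were those of lncRNA:CR45506, lncRNA:CR45472, CkIIalpha, ZnT41F, CG12547, CG33217, Pld and lncRNA:CR46477, and only 297{}2824 lay within 500 bp of one, at 14 bp from CG12547. The windows of FB{}1604, gypsy12{}3425 and Rt1b{}1666 aligned to no other annotated copy of their family, and Rt1b{}1666 is annotated over 66001 bp.

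Within 1360, calls lay at the ends of the element. On a reference copy of 3065 bp, the 63 calls that could be placed had 36 summits in bin 1 of 10 equal bins, 8 in bin 2, 1 each in bins 8 and 9, and 17 in bin 10. All 1360 copies together held 24912 single-copy starts in bin 1 and 23659 in bin 10, against 645 in bin 4, since most copies lack the middle. Bin 1 thus had 36 summits and bin 10 had 17 over about the same single-copy length. GAGAGAG, searched on both strands, stood in 23 of the 36 windows of bin 1, in 24 of all 77 1360 windows (31.2%) and in 12 windows of the other families (2.21%). It is itself common at 1360 ends, being in 24.4% of 3264 windows of the same length centred within 306 bp of a copy's end. Along all insertions other than INE-1 it was in 2.59% of windows. The 24.4% is not limited to windows that align to bin 1, so it is not a like share for the 23 of 36. Whether called copies hold GAGAGAG in bin 1 more often than other copies was not tested. Of calls outside insertions, 4.64% held it.

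**Figure D3:**
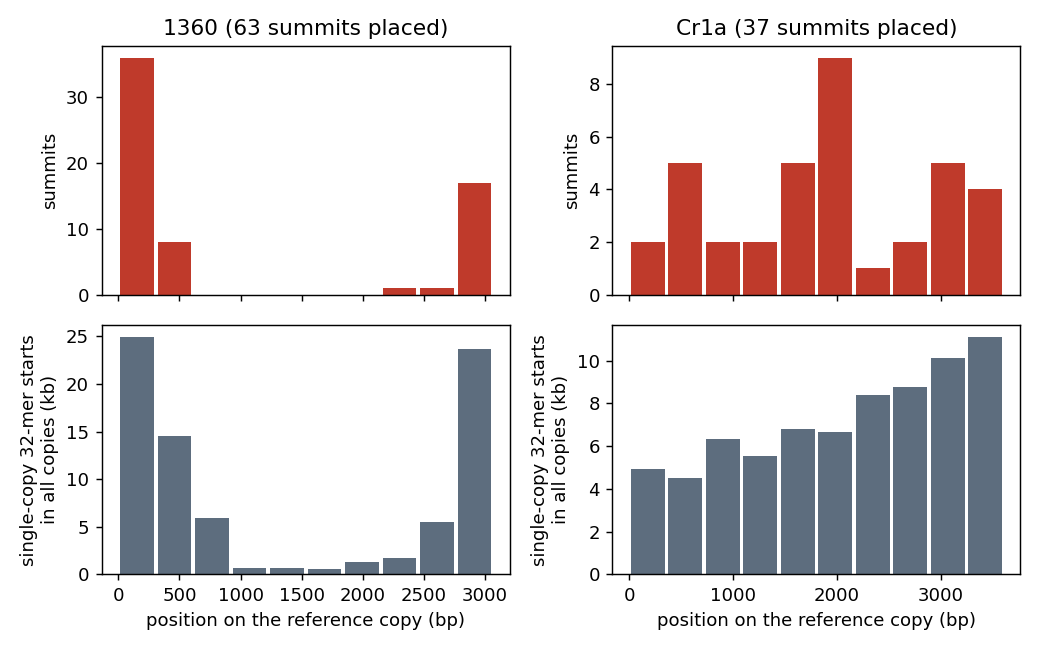
Top, number of summits in 10 equal bins of a reference copy (bp from its start) for 1360 (63 placed calls) and Cr1a (37 placed calls). Bottom, kb of single-copy 32-mer starts that all copies of the family hold in the same bin. 1360 summits and single-copy sequence both lie at the ends, and Cr1a summits are spread along the element.

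Other families differed in this. Of 37 Cr1a calls placed on a copy of 3604 bp, no bin held more than 9. For jockey, 7 of 9 placed summits lay in bin 10, the 3′ end that truncated LINE copies keep, which held 3232 of the single-copy starts of all copies, against 541 to 1628 in each other bin. HB summits lay at both ends, 7 in bin 1 and 15 in bin 10, where most HB copies align.

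gypsy had a site that recurred in several copies. The gypsy insulator, an array of binding sites for the zinc finger protein Su(Hw), is known to lie in the untranslated leader near the 5′ end. Of 6 annotated gypsy copies of at least 7000 bp, 4 had a summit 623 to 674 bp from the start of the reference copy. These were gypsy{}615, gypsy{}RR50358, gypsy{}6524 and gypsy{}RR48391, at pooled ranks 404, 3146, 5628 and 13215. Their ranks were 200, 2289, 4702 and 8852 in replicate 1, and 814, 4509, 6134 and 27913 in replicate 3, the same order in each list. TGCATA, core letters of the Su(Hw) motif chosen after these summits were seen, occurred 2, 2, 4 and 2 times in the 4 windows. At least 1 TGCATA on either strand is in 8.87% of the 620 windows and 13.4% of windows of all pooled calls. Along gypsy insertions, 10.6% of 1209 windows held at least 1 and 3.56% held 3 or more. In these windows gypsy{}615, gypsy{}RR50358 and gypsy{}RR48391 matched another gypsy copy at 98.5% to 99.5% identity and gypsy{}6524 at 82.2%. Calls on the nearly identical copies are not independent of each other, and whether reads of 1 copy were placed on another was not tested.

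A smaller share of calls in these elements than of all calls had a match in both replicates. A match, meaning an overlap of at least 50% of the shorter call, was found in both replicates for 315 of the 620 (50.8%, interval 46.8 to 54.8), where 59.3% of all pooled calls had one. The share was 53.4% in INE-1 and 59.5% outside insertions. Matches in both lists were found for 47.5% of pericentric calls in the elements and 47.0% of pericentric calls outside insertions. On chromosome 4 the shares were 60.4% in the elements and 59.5% outside. On the arms they were 54.0% in the elements (interval 44.9 to 62.9) and 60.8% outside. Within each zone the difference was thus inside the elements' counting interval. Matches ranked within the top 4402 of each replicate for 8 of the 620 (1.29%), where the share of all pooled calls is 11.2%.

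By class, 97 of 174 calls in DNA elements matched in both replicates (55.7%, interval 48.0 to 63.3), 122 of 240 in LTR (50.8%, 44.3 to 57.3) and 96 of 204 in LINE elements (47.1%, 40.1 to 54.2). These intervals overlap. Ranks of the matches followed each other loosely, with a Spearman's rho of 0.30 over the 315 calls and 0.67 over all 17782 pooled calls matched in both. Over the middle 90% of the elements' pooled ranks, rho was 0.17 in 283 calls in the elements and 0.31 in 11848 calls outside insertions. When the rule was applied to each replicate's own list, it found 589 calls in replicate 1, of which 295 matched replicate 3 (50.1%), and 610 in replicate 3, of which 305 matched replicate 1 (50%).

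**Figure D4:**
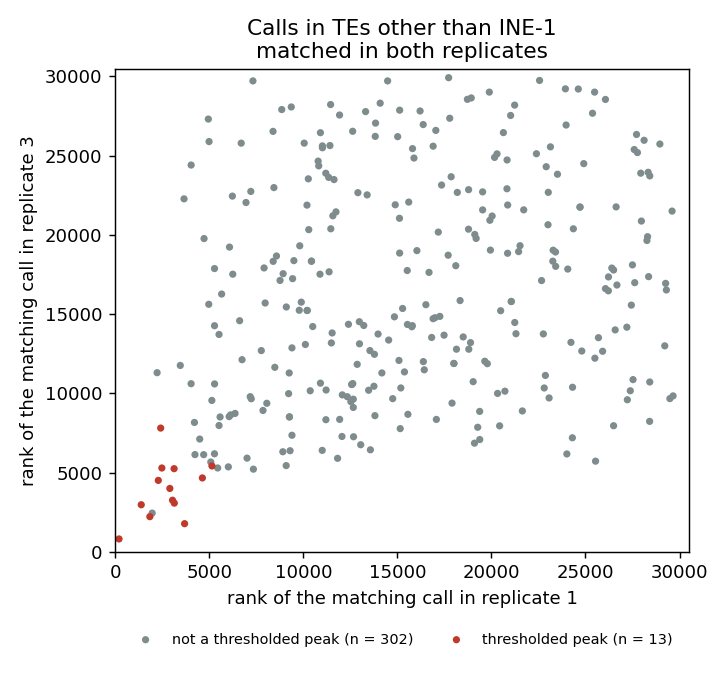
Rank of the matching call in replicate 3 against its rank in replicate 1 for the 315 calls in TEs other than INE-1 matched in both lists, with the 13 thresholded peaks in red. The 13 lie at the lower left, and the other 302 spread over most of the plane.

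Most calls sat on sequence that can be told apart from other copies. All 32-mers of the 201-bp window were single-copy for 202 of the 620 (32.6%, interval 28.9 to 36.4), against 42.8% in INE-1 and 94.8% outside insertions, and the median window in the elements had 94.1% single-copy 32-mers. The window aligned to no other copy of its family in 136 cases. In the other 484, the median identity to the best-matching copy was 86.9% (quartiles 80.9 and 92.5), with 89.3% in DNA, 87.0% in LINE and 83.8% in LTR elements. Only 28 windows matched another copy at 98% or more. Among the 202 calls with wholly single-copy windows 4 were thresholded peaks (1.98%), against 15.6% of calls outside insertions with such windows.

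Inside the insertions, summits lay a median of 210 bp from the nearer end, 97 of them (15.6%) less than 50 bp from it. The whole call lay inside annotated elements for 348 of the 620 (56.1%). Single insertions held 1 call in 354 cases, and 32 insertions held at least 3, with 108 calls together. roo{}850 had 6, Cr1a{}1177 had 5, and 7 insertions had 4, namely 297{}2824, gypsy2{}2972, Doc{}1585, Cr1a{}675, diver2{}2884, 1360{}542 and mdg1{}2335. Of those 9 insertions, roo{}850 and Doc{}1585 lay outside pericentric sequence.

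Density by zone divides calls by single-copy starts, but the counts include calls on partly repeated windows. Wholly single-copy windows made up 29.4% of calls in the elements on the arms and 98.1% outside insertions. These shares were 18.8% and 94.7% on chromosome 4, and 36.9% and 61.9% in pericentric sequence. The densities of elements and other calls are thus not on a like basis and do not show which were called more densely. Per Mb of single-copy starts, chromosome 4 had 1062 calls in the elements (interval 861 to 1297) and 938 other calls. Pericentric 2R had 602 (522 to 692) against 476, pericentric 3L 530 (445 to 627) against 486, and pericentric 2L 579 (438 to 750) against 701. In these 4 zones the other calls lay inside the elements' interval except on 2R. The arms of 2L, 2R and 3R had 417 (294 to 575), 404 (291 to 546) and 370 (235 to 556) in the elements, beside 233, 234 and 191 for other calls. The arms of X and 3L had 229 (136 to 362) and 124 (45.6 to 271) against 286 and 259.

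Some element sequence had few or no calls. Pericentric X, with 67.9 kb of single-copy starts in elements, had 0 calls in them and 222 other calls per Mb. The 0 allows up to 54.3 per Mb by the Poisson interval, or 44.2 by a limit of 3 counts. Pericentric 3R had 5 calls, or 110 per Mb (35.6 to 256), against 191. The Y had 0 in elements and 2 calls in all. Pericentric calls in the elements were most frequent near the arm, with 220 in the 0.5 Mb strips next to the boundaries and 178 in the 15.5 Mb beyond. Element sequence in the strips was 45.0% single-copy and deeper in 21.7%, and per Mb of single-copy starts the strips had 597 calls (521 to 681) and the deeper part 412 (353 to 477). Other calls had 707 per Mb in the strips and 362 deeper in.

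**Figure D5:**
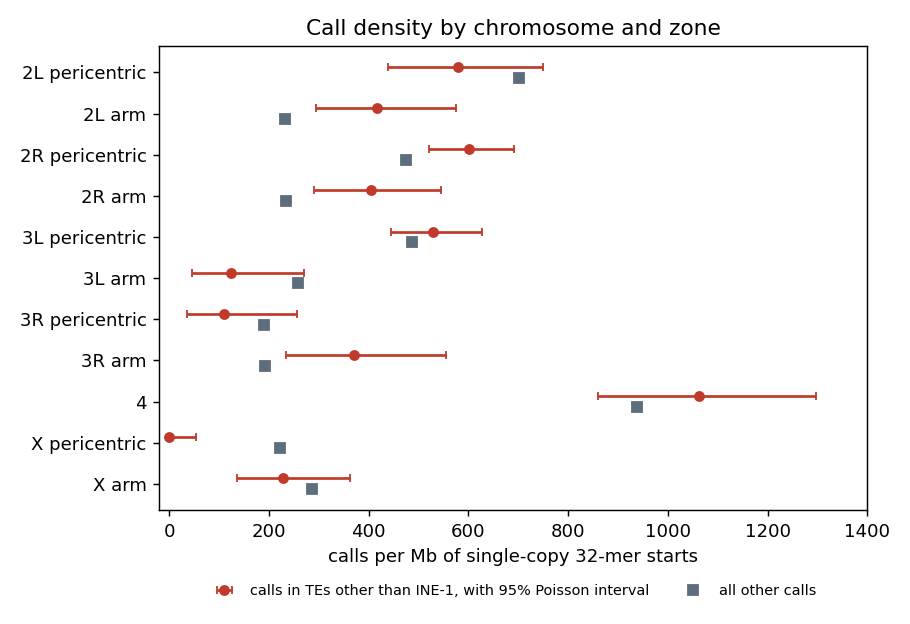
Calls per Mb of single-copy 32-mer starts in each zone, for calls in TEs other than INE-1 (circles, 95% Poisson intervals) and for all other calls over the remaining sequence (squares). Both are highest on chromosome 4, and pericentric X has no call in these elements. Calls on partly repeated windows are counted, so circles and squares are not on a like basis.

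By gene position, 318 of the 620 summits were intergenic (51.3%), 262 intronic (42.3%) and 22 within 500 bp of an annotated start (3.55%, interval 2.24 to 5.32). Outside insertions 31.4% were within 500 bp of a start, but most of those calls lie on the arms. Within pericentric sequence the shares were 1.76% in the elements and 9.39% outside insertions. On chromosome 4 they were 2.08% in the elements and 17.97% outside, and on the arms 10.3% and 34.1%. The share was thus lower in the elements in each zone. How much element sequence itself lies near starts was not tested. Some genes in or near heterochromatin held many of the summits. AGO3 contained 20 calls from 14 families and nAChRalpha4 19 from 9 families. Ir41a, an ionotropic receptor gene, held 19, while Nipped-A and Nipped-B, which encode a SAGA and Tip60 complex subunit and the cohesin loader, held 11 each. On chromosome 4, Cadps, a regulator of vesicle release, held 11. lncRNA:flam, the flamenco piRNA cluster transcript, held 5 from 3 families, the strongest at pooled rank 8753, and was chosen for naming after its values were seen. These gene counts were not set against gene length, the element sequence in each gene or its other calls. They are therefore not densities and do not set these genes apart from others.

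Base content and motifs of the windows differed between the groups. GC content averaged 40.8% in the elements (SD 7.54, n = 620), 36.5% in INE-1 (SD 4.03, n = 283) and 39.2% outside insertions (SD 7.86, n = 29097). By class, GC averaged 42.9% in LINE, 41.1% in LTR and 37.9% in DNA elements. The DNA replication-related element TATCGATA, a core promoter motif, was in 5 of 620 windows (0.806%), against 19.8% in INE-1 and 2.78% outside insertions. Along all annotated insertions other than INE-1 it was in 0.289% of windows, which is no background for the INE-1 calls. CACACACA was in 2.42% of windows in the elements and 5.07% outside insertions, with 0.748% along insertions other than INE-1. GGTCACAC, the motif of many housekeeping promoters, was in 0.645% of windows in the elements and 2.10% outside insertions, with 0.239% along insertions other than INE-1. CAGGTAG, the letters read by the early activator Zelda, was in 1.13% of windows in the elements, 4.59% in INE-1 and 1.12% outside insertions. Along insertions other than INE-1 it was in 0.992% of windows. All 4 motifs were searched on both strands. Promoters are rarer among these calls, as given above, and the part of that in the motif shares was not tested.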

How the data were processed

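Whole-embryo anti-GFP ChIP-seq of 1 group with 2 biological replicates was deposited as peak lists on dm6 (dm3 lists were not used). Regions were called by the authors, per the deposited file lists, with a shared control file on each replicate and on both pooled, and thresholded them with IDR. The deposited signal value ranked calls within each list, and the deposited −log10 q-value saturates and was not used further. The aligner, caller, version and treatment of reads that fit several copies were not given in the sources used here. Insertions and genes came from the Ensembl release 115 annotation and sequence from the Release 6 assembly; chromosome lengths fitted the calls. Where insertions nest, the shortest one holding the summit was taken. A 32-mer was single-copy if it occurred once in the assembly on either strand. Member windows were aligned to insertions with BLAST 2.17.0 (E-value limit 1e-05); a family's reference copy was the one, among its 30 longest, to which most family bases aligned. Tables were made with Python 3.11.15 and scipy. Functions were tested on simulated data. Named were all thresholded peaks, the 20 strongest calls, each family with at least 10 calls with its strongest call, and insertions with at least 3 calls (the 9 with at least 4 by name). No test across regions was run. The members, lists, motifs and boundaries were chosen with earlier results of these data known.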

Additional observations from a re-analysis of the deposited data

How the results depend on the processing

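Summit rules (middle of the call, at least 50% of the call inside, summit at least 50 bp inside, insertions of 500 bp or more), 1 call per insertion, single-copy windows and each replicate list alone were tried, and 99 of 130 recomputed values stayed within the counting interval (counts within 1.5 times) of those reported. With 1 call per insertion, calls per Mb were 154 for DNA, 80.1 for LINE and 35.9 for LTR elements. Cr1a calls were then 39, the median rank 16910 and the match in both replicates 55.3%. With summits at least 50 bp inside, calls per Mb were 151 for DNA, 93.7 for LINE and 43.5 for LTR elements. In insertions of 500 bp or more they were 88.7 for LINE and 39.9 for LTR elements. With single-copy windows only, DNA calls per Mb of single-copy starts were 114, the LTR share 49.5%, the DNA share 17.3%, 1360 calls 14, Cr1a calls 23, the pericentric share 72.8%, the chromosome 4 share 8.91%, the median rank 17358, the promoter share 5.45% and the match 55.9%; only 202 calls remain there. The stronger 50% of thresholded peaks held 0.323% of the 620. Matching by any shared base gave 61.6%, by 80% of the shorter call 31.5% and by summits within 100 bp 34.0%. Boundaries moved 0.5 Mb gave pericentric shares of 28.7% toward the centromere and 71.8% toward the telomere. Promoters of 200 and 1000 bp gave 1.77% and 9.52%. From replicate 3 or 1 alone, thresholded shares (strongest 4402 of that list) were 1.15% to 3.23%, median ranks 18142 to 18424.5, LTR shares 35.6% to 37.4%, DNA calls per Mb 166 to 198, 1360 calls 55 to 78 and Cr1a calls 61 to 62, pericentric shares 63.1% to 65.9%, single-copy windows 33.9% to 35.5% and promoter shares 3.57% to 3.61%. The match in both replicates has no value with 1 list. Comparisons within zones and outside insertions at the moved boundaries, over the same pooled ranks, and the TGCATA count were added after the data were seen. No paired analysis was possible because the samples form 1 group. Read depth is unknown, and it limits what the weak calls can show.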
